A study of Mus musculus with 7 samples.

Results

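The 9 genes described here encode transcriptional regulators that mark the layers of the cerebral cortex, and they were taken as the protein-coding entries named Cux1, Cux2, Rorb, Etv1, Fezf2, Bcl11b, Tbr1, Foxp2 and Tle4 among the 55416 genes of the deposited expression table. Cux1, Cux2 and Rorb were treated as upper-layer members and the other 6 as deep-layer members. RNA-seq was performed on the prefrontal cortex (PFC) of female C57BL/6 wild-type mice in 7 libraries. The 3 Ctr libraries came from mice that received an empty recombinant adeno-associated virus (rAAV), the 2 Ref libraries from mice that received rAAV with the human long noncoding RNA PAXIP1-AS1 carrying the reference C allele, and the 2 Alt libraries from mice that received the alternative G allele. Every construct, the empty one included, carried EGFP under the human synapsin promoter, which is active in neurons, and PAXIP1-AS1 has no mouse homolog, so the groups model forced neuronal expression of a human transcript around a bilateral injection site. The age of the mice at tissue collection and the number of mice behind each library are not given in the sources used here.

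Neurons of the cerebral cortex are born in an order that places late-born cells in the upper layers and early-born cells in the deep layers, and regulators that act in postmitotic neurons fix which axonal targets they reach. Cux1 and Cux2 are Cut homeobox factors of upper-layer neurons that connect within and between the hemispheres, and Rorb is a nuclear receptor known from layer 4 neurons. Which cells or layers of this PFC tissue carried Rorb was not measured. Fezf2 and its effector Bcl11b (Ctip2) specify the layer 5 neurons that project out of the cortex, Etv1 (Er81) marks layer 5 neurons, Tbr1 specifies layer 6 neurons that project to the thalamus and represses Fezf2, Foxp2 marks layer 6 neurons, and Tle4 is a Groucho-type corepressor of layer 6. Because these genes separate the layers, their balance in bulk tissue also depends on how the cortex was sampled. In such tissue, fewer cells of a type and less RNA per cell cannot be told apart.

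The promoters of the 3 upper-layer members, which were all higher in Alt than in Ctr, are shown with that of Fezf2, the deep-layer member with the lowest Alt to Ctr difference. A RefSeq promoter entry of build GRCm38.p6 was found for 8 of the 9 members, the exception being Foxp2. The 250 bases before the most upstream listed start are printed 5′ to 3′ on the gene's own strand, and they lie at chr5:122049852-122050101 for Cux2, chr19:19111197-19111446 for Rorb, chr5:136565982-136566231 for Cux1 and chr14:12345866-12346115 for Fezf2, all on the minus strand of that build. Capitals mark matches on either strand to 5 short motifs, namely the E-box (CANNTG), the ROR site (AGGTCA), the Cut core (ATCGAT), the T-box core (GTGTGA) and the CCAAT box (CCAAT). Motifs could overlap.
Cux2: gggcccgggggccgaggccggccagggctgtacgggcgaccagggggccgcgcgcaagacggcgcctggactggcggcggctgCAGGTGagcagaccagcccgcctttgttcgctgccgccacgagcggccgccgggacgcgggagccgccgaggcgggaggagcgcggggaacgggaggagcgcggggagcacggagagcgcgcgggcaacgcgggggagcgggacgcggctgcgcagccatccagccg
Rorb: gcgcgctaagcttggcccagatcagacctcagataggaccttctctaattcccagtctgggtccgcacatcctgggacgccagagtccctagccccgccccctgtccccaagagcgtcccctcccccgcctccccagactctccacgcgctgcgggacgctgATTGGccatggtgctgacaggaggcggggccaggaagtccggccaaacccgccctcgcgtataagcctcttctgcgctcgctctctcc
Cux1: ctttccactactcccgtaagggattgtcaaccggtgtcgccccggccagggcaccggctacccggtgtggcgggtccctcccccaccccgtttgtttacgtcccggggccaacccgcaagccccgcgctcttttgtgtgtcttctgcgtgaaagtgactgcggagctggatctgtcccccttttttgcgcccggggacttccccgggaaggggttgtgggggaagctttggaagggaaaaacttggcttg
Fezf2: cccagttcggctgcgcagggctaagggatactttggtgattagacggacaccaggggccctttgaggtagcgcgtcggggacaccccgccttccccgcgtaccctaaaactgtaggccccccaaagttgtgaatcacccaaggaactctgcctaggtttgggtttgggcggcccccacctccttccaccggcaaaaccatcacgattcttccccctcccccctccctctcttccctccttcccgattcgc
The Cux2 window held 1 E-box and the Rorb window 1 CCAAT box, in reverse orientation, and the Cux1 and Fezf2 windows held none of the 5 motifs. Among all 32851 RefSeq windows of the same length, 66.2% held an E-box, 33.8% a CCAAT box, 14% a ROR site, 12.3% a T-box core and 0.728% a Cut core. The Cux2 window was 80% G or C with 40 CpG dinucleotides. Across the 12 windows of the 8 members the median was 58.2% G or C and 11.5 CpG, and across all windows it was 52.4% and 6. These matches describe the letters of the windows and were not tested for binding.

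The deposited table lists the members on chromosome 5 for Cux1 (136276989 to 136596344, minus strand) and Cux2 (121994429 to 122188165, minus strand), on chromosome 19 for Rorb (18907969 to 19088560, minus strand) and Tle4 (14425514 to 14575415, minus strand), and on chromosome 12 for Etv1 (38829379 to 38920483, plus strand) and Bcl11b (107876662 to 107969861, minus strand). Fezf2 is listed on chromosome 14 (10121574 to 10127669, plus strand), Tbr1 on chromosome 2 (61633274 to 61644458, plus strand) and Foxp2 on chromosome 6 (14901348 to 15441976, plus strand). The genome build of these coordinates is not stated, and they differ from the GRCm38.p6 positions above, for Fezf2 in strand as well. Noncoding genes that the table lists inside Cux1, Cux2 and Foxp2 had at most 5 counts in any library. The Cux1 locus also encodes the Golgi protein CASP from shared exons, and the counts of the gene do not separate its transcripts.

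Total counts per library ranged from 19382848 to 20750857 in Ctr and from 19731791 to 19801971 in Ref, and were 16655697 and 18673575 in Alt. Levels are given as CPM, the count relative to the library's total, scaled by edgeR's TMM factors, and levels of different genes are compared only as deposited FPKM, which also divides by exonic length. The first Alt library stood apart from the rest in that long genes were high and short genes low in it. A smooth curve of each gene's deviation on its length reached 0.62 (log2) at the length of Cux1 and -0.28 at that of Fezf2 in this library. In the other 6 libraries it lay between -0.38 and 0.10 at the length of Cux1 and between -0.02 and 0.15 at that of Fezf2. The first Ctr library tilted the other way, at -0.38 for Cux1 and 0.15 for Fezf2, as did the first Ref library, at -0.19 and 0.14. Values without the first Alt library are given beside many of the results below, and they still hold these tilts. The neuronal markers of the tissue were abundant, with the excitatory markers (Slc17a7, Camk2a and 5 others) summing to between 5076 and 6443 CPM over all libraries. Defining genes of the neighbouring olfactory bulb (Eomes, Tbx21) and striatum (Six3, Isl1) did not exceed 0.788 CPM in any library, whereas other markers of both were present at higher levels, with Cdhr1 of the olfactory bulb at up to 12.2 CPM and the striatal markers as given with Foxp2.

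Among the 9 members, Tbr1 had by far the highest level per length in Ctr mice, at 40.3 ± 6.32 FPKM (SD, n = 3). Tle4 followed at 14.7 ± 1.44, Fezf2 at 12.4 ± 2.58, Bcl11b at 9.40 ± 1.52, Etv1 at 8.80 ± 0.608 and Cux2 at 8.79 ± 1.19 FPKM, each overlapping its neighbour in this order over the 3 libraries. Rorb at 3.62 ± 0.397, Cux1 at 2.58 ± 0.0653 and Foxp2 at 1.87 ± 0.123 FPKM were the lowest, and these 3 did not overlap with each other. From Ctr to Alt the order changed most for Cux2, which had rank 6 in Ctr, rank 4 in Ref (9.80 ± 1.31 FPKM, n = 2) and rank 2 in Alt (14.1 ± 2.94 FPKM, n = 2). In Alt it overlapped with Tle4, at 13.6 ± 2.63 FPKM. Fezf2 went the other way, from rank 3 in Ctr and rank 2 in Ref (11.9 ± 1.81 FPKM) to rank 6 in Alt (8.15 ± 1.60 FPKM). All 9 members passed the low-count filter, with between 356 and 5246 counts in each library.

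**Figure D1:**
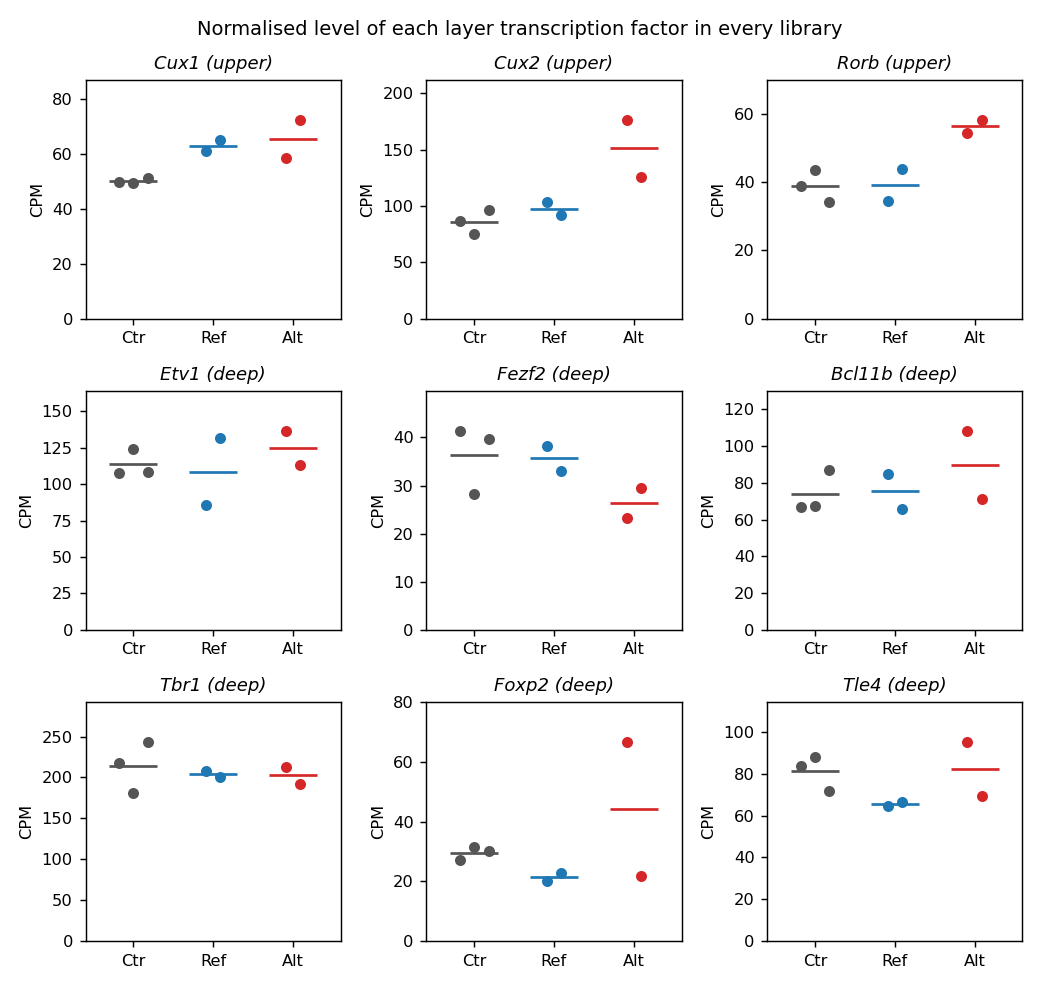
Each panel plots the TMM-scaled CPM (vertical axis, from 0) of 1 member in the 3 Ctr, 2 Ref and 2 Alt libraries, with points for libraries, ordered by replicate number, and lines for group means. Both Alt libraries lie above all Ctr libraries for Cux1, Cux2 and Rorb, and the ratio between the Alt libraries is largest for Foxp2, at 66.8 and 21.6 CPM.

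The comparison of Alt with Ctr asked how the layer regulators differed between mice with the G allele transcript and mice with the empty vector, and the 3 upper-layer members were all higher in Alt. Their differences passed an unadjusted p of 0.05 and none passed an FDR of 0.05 over the 17254 genes tested. Cux2 showed the largest difference. It measured 86.4, 74.8 and 96.4 CPM in the Ctr libraries and 177 and 126 CPM in the Alt libraries, so that the groups did not overlap. The log2 fold change was 0.82 (95% CI 0.43 to 1.21, 1.76-fold, edgeR quasi-likelihood test, unadjusted p = 0.000663, adjusted p = 0.12), which placed Cux2 at rank 89 of all genes tested. Without the first Alt library, the log2 fold change of Cux2 was 0.55 (edgeR, unadjusted p = 0.00962, adjusted p = 0.511), and without the second it was 1.04 (edgeR, adjusted p = 0.00174). The adjusted call depended on the tool and on the low-count filter. The adjusted p of Cux2 was 0.00298 with DESeq2, which called 1123 genes in all, and 0.000468 with edgeR on unfiltered counts, which called 1484.

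Rorb measured 38.9, 43.6 and 34.3 CPM in Ctr and 54.4 and 58.4 CPM in Alt. Both Alt libraries exceeded every Ctr library, with a log2 fold change of 0.53 (95% CI 0.15 to 0.92, edgeR, unadjusted p = 0.0111, adjusted p = 0.15). Without the first Alt library it was 0.59 (edgeR, unadjusted p = 0.0135, adjusted p = 0.554). Cux1 had the tightest Ctr group, at 49.8, 49.6 and 51.1 CPM, and measured 58.5 and 72.6 CPM in Alt. Its groups did not overlap and its log2 fold change was 0.39 (95% CI 0.05 to 0.73, edgeR, unadjusted p = 0.0293, adjusted p = 0.201). Here the higher library was the second Alt library, and without the first the log2 fold change was 0.53 (edgeR, unadjusted p = 0.00896, adjusted p = 0.509). The p-value of Cux1 rose above 0.05 on leaving out any library but the first Alt library, up to 0.244 without the second. With a correction for gene length, described further on, Cux1 turned to -0.10 and Rorb was at 0.25, neither past an unadjusted p of 0.05.

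The 6 deep-layer members had no common direction between Alt and Ctr, with 4 higher, 2 lower, and none past an unadjusted p of 0.05. All 6 were lower in Alt when the first Alt library was left out, at a median log2 fold change of -0.19, and again none passed. Fezf2 measured 41.4, 28.2 and 39.8 CPM in Ctr and 23.2 and 29.4 CPM in Alt, so that the second Ctr library fell between the Alt libraries. Its log2 fold change was -0.47 (95% CI -0.94 to 0.00238, edgeR, unadjusted p = 0.051, adjusted p = 0.254), and -0.31 without the first Alt library. Tbr1 measured 218, 181 and 244 CPM in Ctr and 213 and 192 CPM in Alt. The Alt values lay inside the Ctr range, at a log2 fold change of -0.08 (95% CI -0.43 to 0.27). Tle4 measured 83.9, 88.0 and 71.6 CPM in Ctr and 95.3 and 69.6 CPM in Alt, on both sides of the Ctr range, at a log2 fold change of 0.02 (95% CI -0.35 to 0.40). Etv1 (108 to 124 CPM in Ctr, 137 and 113 in Alt) and Bcl11b (66.9 to 87.2 CPM in Ctr, 108 and 71.1 in Alt) had log2 fold changes of 0.14 (95% CI -0.28 to 0.55) and 0.28 (95% CI -0.17 to 0.73).

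Foxp2 was the member on which the Alt libraries disagreed most. It measured 27.2, 31.6 and 30.1 CPM in Ctr, and 66.8 CPM (1027 counts) in the first and 21.6 CPM (388 counts) in the second Alt library, a ratio of 3.09. The first lay above and the second below every Ctr library. The log2 fold change of 0.57 (95% CI -0.17 to 1.32, edgeR, unadjusted p = 0.119, adjusted p = 0.369) turned to -0.45 without the first Alt library (edgeR, unadjusted p = 0.0701, adjusted p = 0.632) and was 1.17 without the second (edgeR, adjusted p = 0.00146). For the other members the higher library of any group was at most 1.54 times the lower. Foxp2 is also expressed by striatal projection neurons. The 10 striatal markers summed to between 135 and 150 CPM in Ctr, between 133 and 180 CPM in Ref, and to 142 to 157 CPM in Alt. Within the list, Pde10a alone measured 90.9 CPM in the first and 66.9 CPM in the second Alt library. The rest of the list, split off after its values were seen, summed to 65.9 CPM in the first and 75.1 CPM in the second Alt library and to 69.1 to 85.5 CPM in Ctr. Six3 and Isl1 reached at most 0.387 CPM. Of the 8 striatal markers tested, Alt exceeded Ctr for 3 and fell short of it for 5. An unadjusted p of 0.05 was passed by 0 of them, against 19.8% of all genes. The part of these markers in the level of Foxp2 was not tested.

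Thus 3 of the 9 members differed between Alt and Ctr at an unadjusted p of 0.05, against 19.8% of all genes tested, and 0 at an FDR of 0.05, against 0% of all genes. The Alt and Ctr libraries did not overlap for 3 members, against 35% of all genes. Without the first Alt library 3 members again passed an unadjusted p of 0.05, against 8.14% of all genes. Without the second, 5 did, against 33.2% of all genes, among them Fezf2 at -0.66 (edgeR, adjusted p = 0.0896) and Bcl11b at 0.55 (edgeR, adjusted p = 0.0739). The median log2 fold change was 0.53 over the 3 upper-layer members, 0.08 over the 6 deep-layer members and -0.03 over all genes tested. Without the second Alt library the median was 0.48 for the upper-layer and 0.25 for the deep-layer members. When gene length was corrected for, it was 0.25 for the upper-layer and -0.06 for the deep-layer members.

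**Figure D2:**
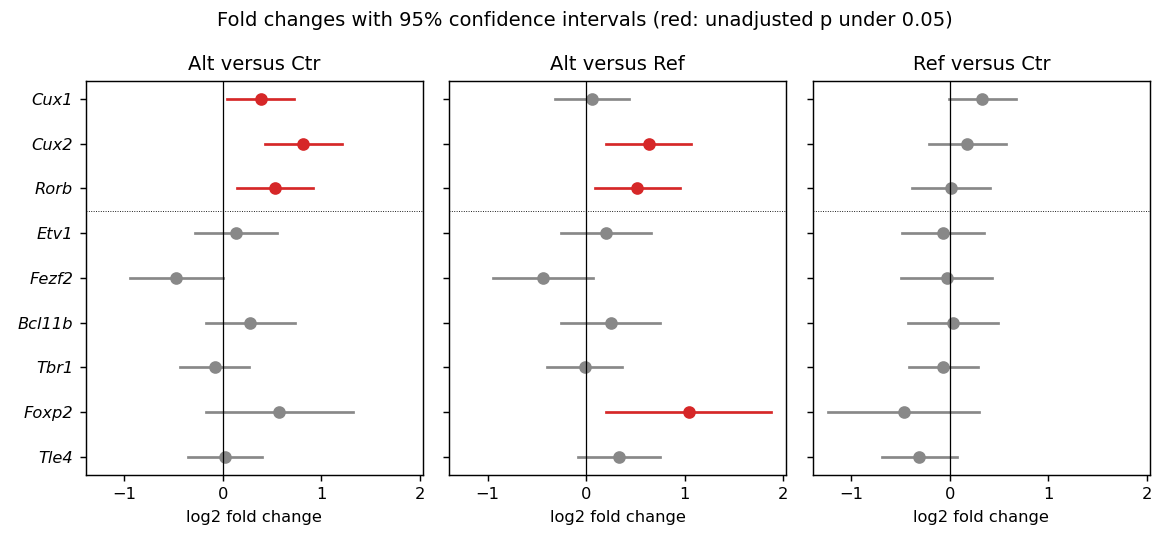
The log2 fold change (horizontal axis) of each member is plotted as a point with its 95% confidence interval from edgeR as a line, in Alt versus Ctr, Alt versus Ref and Ref versus Ctr, with a dotted line between upper and deep members. The intervals of Cux1, Cux2 and Rorb in Alt versus Ctr and those of Cux2, Rorb and Foxp2 in Alt versus Ref lie above 0, and all 9 intervals in Ref versus Ctr include 0.

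The comparison of Alt with Ref, which differ in the allele of the transcript, gave higher Cux2 and Rorb in Alt at an unadjusted p of 0.05, and higher Foxp2 through 1 library. It shares the Alt libraries with the comparison above. Cux2 measured 103 and 91.6 CPM in Ref, below both Alt libraries, with a log2 fold change of 0.64 (95% CI 0.20 to 1.07, edgeR, unadjusted p = 0.00778, adjusted p = 0.236) that was 0.38 without the first Alt library (edgeR, unadjusted p = 0.0762, adjusted p = 0.742). Without the second Ref library its unadjusted p rose to 0.0561 (edgeR, adjusted p = 0.472), and without the second Alt library its adjusted p was 0.00995 (edgeR, log2 fold change 0.87). DESeq2 gave Cux2 an adjusted p of 0.042 here. Rorb measured 34.6 and 44.0 CPM in Ref, also below both Alt libraries, with a log2 fold change of 0.52 (95% CI 0.09 to 0.95, edgeR, unadjusted p = 0.0216, adjusted p = 0.256) that was 0.35 without the first Ref library (edgeR, unadjusted p = 0.203, adjusted p = 0.965) and 0.58 without the first Alt library (edgeR, unadjusted p = 0.0205, adjusted p = 0.693). Without the second Alt library the unadjusted p of Rorb was 0.0519 (edgeR, adjusted p = 0.177).

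Cux1 measured 61.1 and 65.1 CPM in Ref, between the Alt values, at a log2 fold change of 0.06 (95% CI -0.32 to 0.43). Foxp2 measured 20.2 and 22.8 CPM in Ref, around the second Alt library. Its log2 fold change was 1.04 (95% CI 0.20 to 1.88, edgeR, unadjusted p = 0.019, adjusted p = 0.249). It fell to 0.02 without the first Alt library and rose to 1.65 without the second. Without the first Ref library its unadjusted p was 0.072 (edgeR, adjusted p = 0.965). Fezf2 measured 38.3 and 33.0 CPM in Ref, above both Alt libraries, at a log2 fold change of -0.44 (95% CI -0.95 to 0.07). It was at -0.26 without the first Alt library and -0.61 without the second. Tle4 measured 64.4 and 66.5 CPM in Ref, below both Alt libraries, at 0.33 (95% CI -0.08 to 0.75). It was at 0.10 without the first Alt library and 0.55 without the second. The intervals of Etv1, Bcl11b and Tbr1 also included 0. In all, 3 of 9 members passed an unadjusted p of 0.05, against 15.5% of all genes, and 0 an FDR of 0.05, against 0.0058% of all genes. The libraries did not overlap for 4 members (Cux2, Rorb and Tle4 higher, Fezf2 lower), against 47.7% of all genes.

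In Ref versus Ctr no member passed an unadjusted p of 0.05, against 3.14% of all genes, or an FDR of 0.05, against 0%. DESeq2 also called 0 of the 9 at that FDR. Cux1 was nearest, at a log2 fold change of 0.33 (95% CI -0.01 to 0.67, edgeR, unadjusted p = 0.0559, adjusted p = 1), and both Ref libraries exceeded all 3 Ctr libraries. Tle4 (-0.31, 95% CI -0.69 to 0.07) and Foxp2 (-0.47, 95% CI -1.23 to 0.30) lay below every Ctr library in both Ref libraries. Cux2 was at 0.18 (95% CI -0.21 to 0.57), and Rorb, Etv1, Fezf2, Bcl11b and Tbr1 lay between -0.07 and 0.03. The 3 members without overlap stand against 22.9% of all genes. The spread of Foxp2 between the Alt libraries entered these tests, and when Ref and Ctr were fitted alone, Foxp2 (edgeR, unadjusted p = 0.0154, adjusted p = 0.788), Tle4 (edgeR, unadjusted p = 0.0427, adjusted p = 0.856) and Cux1 (edgeR, unadjusted p = 0.0443, adjusted p = 0.856) passed an unadjusted p of 0.05, against 5.73% of all genes in that fit. When the groups were scored 0, 1 and 2 in the order Ctr, Ref, Alt, the same 3 upper-layer members as in Alt versus Ctr passed an unadjusted p of 0.05, against 16.7% of all genes, and no member passed an FDR of 0.05, against 0% of all genes.

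Of the 9 members, all but Fezf2 were longer than the median gene, with exonic lengths of 20024 bases for Cux1, 16346 for Foxp2, 13296 for Etv1, 11076 for Rorb, 10082 for Cux2, 8111 for Bcl11b, 5702 for Tle4, 5486 for Tbr1 and 3047 for Fezf2, against a median of 4051 over the genes tested. Length moved with the differences between Alt and Ctr. When the smooth curve on length was removed from each library, the log2 fold change of Cux2 was 0.54 (edgeR, unadjusted p = 0.00344, adjusted p = 0.155), and it alone among the 9 members passed an unadjusted p of 0.05, against 16.3% of all genes under this correction. Rorb fell to 0.25 (edgeR, unadjusted p = 0.181, adjusted p = 0.514), Foxp2 to 0.03 and Fezf2 moved to -0.23, while Cux1 turned to -0.10. In Alt versus Ref, Cux2 was again the single member past 0.05, against 13% of all genes, at 0.40 (edgeR, unadjusted p = 0.0327, adjusted p = 0.34). What length stands for in these libraries was not tested.

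**Figure D3:**
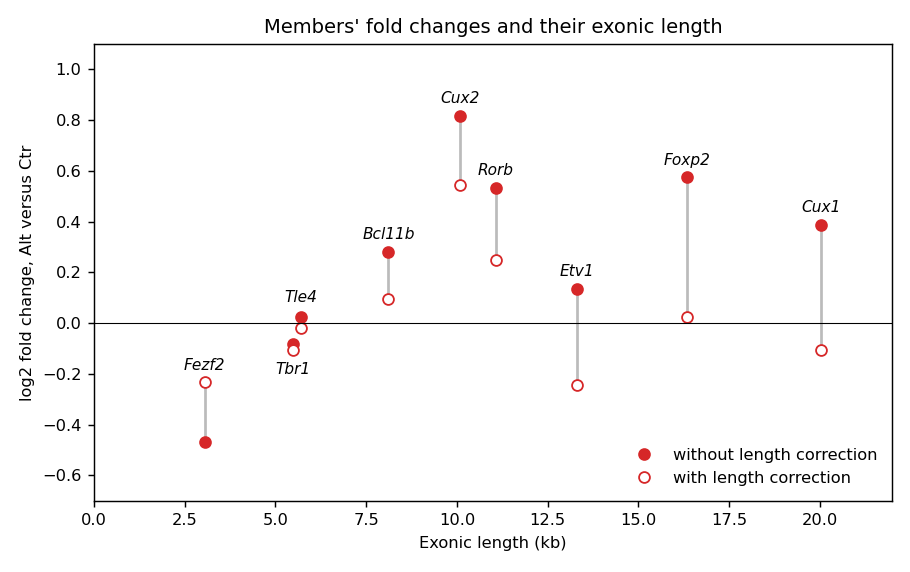
For each member, the log2 fold change of Alt versus Ctr (vertical axis) is plotted against exonic length in kilobases (horizontal axis) without (filled) and with (open) the length correction. The correction lowers Cux1 from 0.39 to -0.10 and Foxp2 from 0.57 to 0.03, and leaves Cux2 highest at 0.54.

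As a check of how the layers were represented, the mean log2 CPM of the 6 deep-layer members was subtracted from that of the 3 upper-layer members in each library. The Ctr libraries gave -0.40, -0.36 and -0.46, the Ref libraries -0.11 and -0.06, and the Alt libraries -0.09 and 0.34. All 4 libraries with a PAXIP1-AS1 transcript thus lay above all 3 Ctr libraries, by 0.53 for Alt and 0.32 for Ref on average, with a pooled SD of 0.16 within groups. The Alt libraries differed from each other by more than the groups Alt and Ref did, by 0.21 on average. The sides contributed unequally. In Alt the upper mean was 6.37 and 6.34, against 5.77 to 5.79 in Ctr, and the deep mean was 6.46 and 6.001, against 6.13 to 6.26. In Ref the upper mean was 5.91 and 6.003 and the deep mean 6.02 and 6.06, the latter below all Ctr libraries. After the length correction the first Alt library fell to -0.35, inside the Ctr range of -0.43 to -0.24, whereas the second stayed at 0.31 and the Ref libraries were at -0.01 and -0.05. Using the median of the members, the first Alt library was at -0.80, below every Ctr library.

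**Figure D4:**
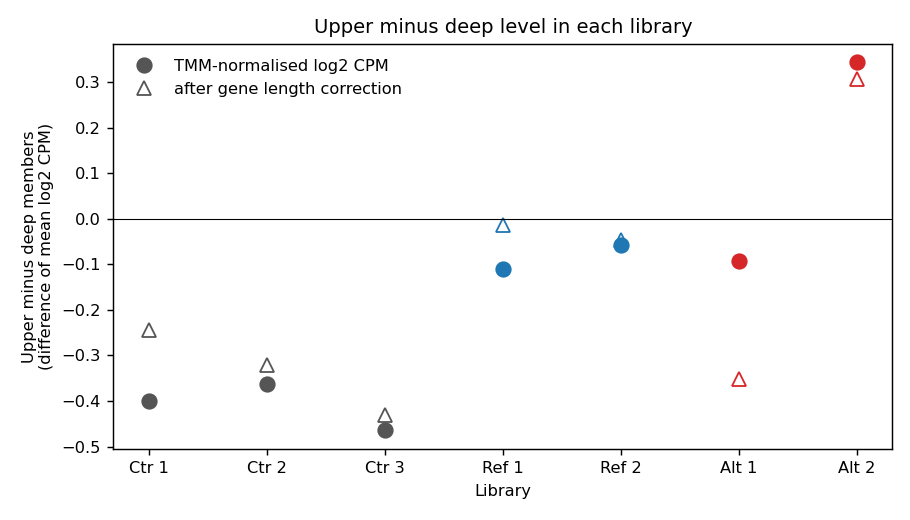
The difference between the mean log2 CPM of the upper and of the deep members (vertical axis) is plotted for each of the 7 libraries, as filled circles and, after the length correction, as open triangles. The circles lie between -0.46 and -0.36 in Ctr and at -0.11 or higher in Ref and Alt, and the triangle of the first Alt library falls to -0.35.

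Ratios between single members within a library do not depend on library scaling, though they do carry a difference in gene length. The FPKM of Cux2 was 0.631, 0.803 and 0.733 times that of Fezf2 in Ctr, 0.815 and 0.838 times in Ref, and 2.31 and 1.29 times in Alt. Both Alt libraries therefore had more Cux2 than Fezf2 per length, and the other 5 libraries had less. Cux2 and Fezf2 had the highest and lowest log2 fold change of the 9 members in Alt versus Ctr, at 0.82 and -0.47. Their ratio repeats those differences and gives no separate support. Against Tbr1, the FPKM of Cux2 was 0.216, 0.225 and 0.215 times in Ctr, 0.27 and 0.248 times in Ref, and 0.451 and 0.358 times in Alt. This ratio did not overlap between any of the groups. No other pair of an upper and a deep member was examined, and the share of all gene pairs that separate the groups was not computed. In the first Alt library the length curve stood at 0.30 for Cux2, -0.28 for Fezf2 and 0.04 for Tbr1, and in the second at 0.06, -0.02 and 0.02.

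Other genes known for the same layers were examined as lists that hold none of the 9 members. These lists were chosen with earlier results of these data known and were read in the same 7 libraries. They are therefore no separate support for the members' differences. Among 11 further upper-layer genes, 9 had a higher and 2 a lower level in Alt, with a median log2 fold change over Ctr of 0.31 against -0.03 over all genes. An unadjusted p of 0.05 was passed by 3 of the 11, all higher in Alt, against 19.8% of all genes. Rasgrf2, a Ras guanine nucleotide exchange factor of upper layers, had the lowest p of the list. It measured 145 to 199 CPM in Ctr, 176 and 178 CPM in Ref, and 289 and 235 CPM in Alt, with both Alt libraries above all others and a log2 fold change of 0.66 against Ctr (edgeR, unadjusted p = 0.00238, adjusted p = 0.12). The other 2, named here after their values were seen, were Wfs1 (0.82, edgeR, adjusted p = 0.129) and Nectin3 (0.55, edgeR, adjusted p = 0.201). Without the first Alt library 10 of the 11 were higher in Alt, at a median of 0.24, with 2 past an unadjusted p of 0.05 against 8.14% of all genes, among them Rasgrf2 (0.50, edgeR, unadjusted p = 0.0178, adjusted p = 0.554), and after the length correction 8 were, at a median of 0.21. Without the second Alt library 8 were higher, at a median of 0.13, with 4 higher and 2 lower past an unadjusted p of 0.05, against 33.2% of all genes. Against Ref the median was 0.24, with 6 higher and 5 lower. At an unadjusted p of 0.05, 2 were higher and 1 lower, against 15.5% of all genes. The lower gene was Lamp5 at -0.73 (edgeR, adjusted p = 0.266), also named after its value was seen. Without the first Alt library 7 were higher and 4 lower against Ref, at a median of 0.29, and Lamp5 was at -0.29.

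The deep-layer lists had medians below 0 in Alt versus Ctr. Of 12 layer 5 genes, 11 were tested, 5 higher and 6 lower, at a median log2 fold change of -0.14. At an unadjusted p of 0.05, 2 were higher and 0 lower, against 19.8% of all genes. Npr3, a natriuretic peptide receptor of layer 5, had the lowest p and was higher in Alt by 0.66 (edgeR, unadjusted p = 0.0104, adjusted p = 0.147), and Deptor, an inhibitor of mTOR signalling, was higher by 0.77 (edgeR, unadjusted p = 0.0117, adjusted p = 0.151). In Alt versus Ref, 2 were higher and 9 lower at a median of -0.15, and only Deptor passed an unadjusted p of 0.05, against 15.5% of all genes. When the first Alt library was removed, Npr3 fell to 0.52 and Deptor to 0.50 against Ctr, so both differences rest in part on that library. The 11 layer 6 genes split into 4 with a higher and 7 with a lower level in Alt than in Ctr, at a median of -0.19. At an unadjusted p of 0.05, 1 was higher and 2 were lower, against 19.8% of all genes. Oprk1, the kappa opioid receptor, measured 6.06 to 7.76 CPM in Ctr, 6.14 and 7.39 CPM in Ref, and 18.9 and 11.2 CPM in Alt. Its log2 fold change was 1.12 against Ctr (edgeR, unadjusted p = 0.00209, adjusted p = 0.12) and 1.15 against Ref (edgeR, unadjusted p = 0.00374, adjusted p = 0.233). Rprm (-0.77, edgeR, adjusted p = 0.17) and Crym (-0.42, edgeR, adjusted p = 0.251), named after their values were seen, were the 2 lower layer 6 genes past an unadjusted p of 0.05. With the first Alt library left out, 1 layer 6 gene was higher and 3 were lower at that threshold, against 8.14% of all genes. Oprk1 was then at 0.69 against Ctr (edgeR, unadjusted p = 0.0444, adjusted p = 0.605), Rprm at -0.88 (edgeR, unadjusted p = 0.0187, adjusted p = 0.554) and Crym at -0.28 (edgeR, unadjusted p = 0.221, adjusted p = 0.734). After the length correction the medians were 0.00493 for layer 5 and 0.08 for layer 6, so that the sign of neither list was kept. Without the second Alt library layer 5 was at -0.06, with 5 higher and 6 lower, and layer 6 turned to 0.05, with 6 higher and 5 lower. Without the first the medians were -0.11 and -0.27.

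Among 24 other regulators of projection neurons, the Alt level exceeded that of Ctr for 12 and fell short of it for 12, at a median of 0.02, with 4 higher and 2 lower at an unadjusted p of 0.05, against 19.8% of all genes. Mef2c, a MADS-box factor of cortical projection neurons, measured 815 to 900 CPM in Ctr, 731 and 789 CPM in Ref, and 1333 and 1107 CPM in Alt. Its log2 fold change was 0.52 against Ctr (edgeR, unadjusted p = 0.00374, adjusted p = 0.124) and 0.68 against Ref (edgeR, unadjusted p = 0.00117, adjusted p = 0.229). The other 5 past 0.05 in Alt versus Ctr, named after their values were seen, were Nfia, Nfib and Zfpm2, which were higher, and Neurod6 and Id2, which were lower. In Alt versus Ref 6 were higher and 1 lower at an unadjusted p of 0.05, against 15.5% of all genes, at a median of -0.00046. The lower gene was Lhx2 at -0.48 (edgeR, adjusted p = 0.312), named after its value was seen. On leaving out the first Alt library, 16 were higher and 8 lower against Ctr at a median of 0.07, and 15 higher and 9 lower against Ref at 0.13. On leaving out the second instead, 12 were higher and 12 lower against Ctr at a median of -0.00784, and 13 higher and 11 lower against Ref at 0.06. Without the first library Mef2c fell to 0.38 against Ctr and 0.55 against Ref. With the length correction 2 were higher and 0 lower against Ctr at an unadjusted p of 0.05, against 16.3% of all genes. Mef2c was then at 0.07 (edgeR, unadjusted p = 0.543, adjusted p = 0.806).

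**Figure D5:**
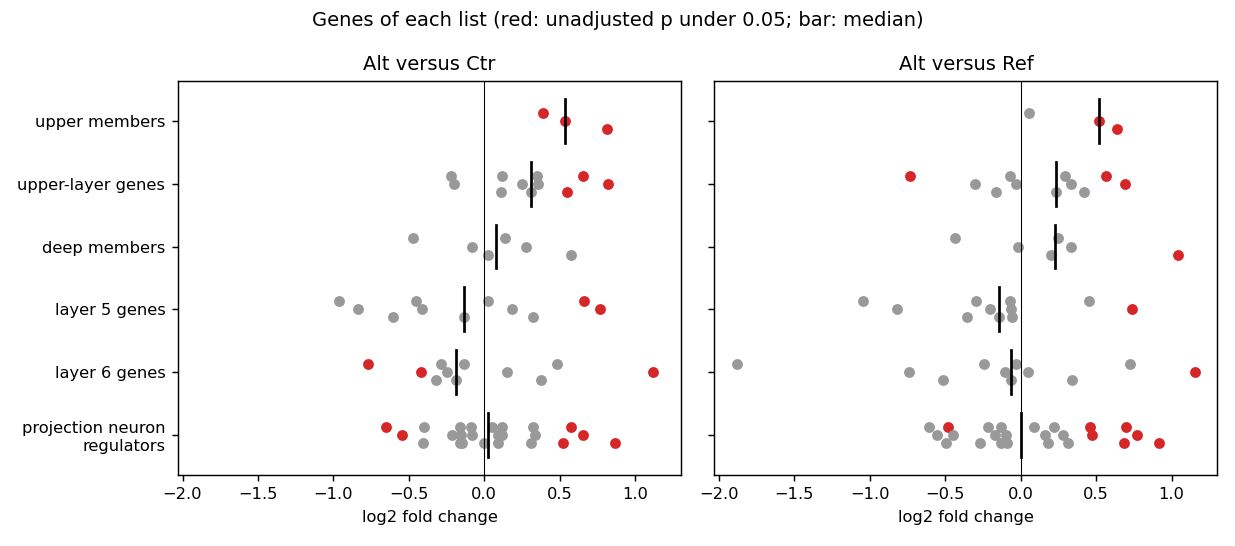
Points are genes, plotted by log2 fold change (horizontal axis) in Alt versus Ctr and Alt versus Ref for the upper and deep members, the further upper-layer, layer 5 and layer 6 genes and the other regulators, with bars at the median of each list. In Alt versus Ctr the medians are 0.53 for the upper members, 0.31 for the upper-layer genes, -0.14 for layer 5 and -0.19 for layer 6.

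Closely related genes of the members were present at various levels. Of 14 paralogs, 10 were tested. Rora, the paralog of Rorb, measured 71.4 to 85.2 CPM in Ctr, 76.6 and 101 CPM in Ref, and 151 and 114 CPM in Alt. No other paralog passed an unadjusted p of 0.05 against Ctr, where 19.8% of all genes did. The log2 fold change of Rora was 0.75 against Ctr (edgeR, unadjusted p = 0.00131, adjusted p = 0.12). It was 0.53 without the first Alt library (edgeR, unadjusted p = 0.0144, adjusted p = 0.554). Per length, Rora (6.23 FPKM in Ctr) exceeded Rorb, Etv5 (27.4 FPKM) exceeded Etv1, and Foxp1 (6.74 FPKM) and Foxp4 (6.27 FPKM) exceeded Foxp2. Bcl11a (4.04 FPKM) was below Bcl11b. Fezf1, Tbx21 and Foxp3 had at most 5 counts in any library and Eomes at most 16.

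The genes whose centred log2 CPM over the 7 libraries lay nearest to the mean of the 3 upper-layer members were Luzp1 (root mean square difference 0.053), Pdlim5 (0.066) and Mtf1 (0.066), against an SD of 0.26 for that mean profile. Nearest to the mean of the 6 deep-layer members were Nin (0.048), Slc25a32 (0.053) and Golga4 (0.059), against an SD of 0.16. These measures describe likeness over 7 libraries that share their groups.

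Markers of other cells also differed between the groups, and their part in the members' differences was not tested. The 6 astrocyte markers summed to between 4827 and 6513 CPM in Ctr, between 6582 and 8245 CPM in Ref and between 7621 and 11072 CPM in Alt. An unadjusted p of 0.05 was passed by 1 of the 6, higher in Alt than in Ctr, against 19.8% of all genes. That gene, the glutamate transporter Slc1a2, reached 9528 CPM and made up most of the sum, with a log2 fold change of 0.86 (edgeR, adjusted p = 0.12), whereas the median over the 6 was 0.11. The 10 oligodendrocyte markers, such as Mbp and Mag of the myelin sheath, summed to between 2425 and 3431 CPM in Ctr, between 4101 and 5101 CPM in Ref and between 2374 and 2904 CPM in Alt. All 10 were lower in Alt than in Ref, 8 of them at an unadjusted p of 0.05, against 15.5% of all genes. The median log2 fold change was -0.85, and -1.01 without the first Alt library. All 10 were higher in Ref than in Ctr. The summed level of the upper-layer members was 168 to 182 CPM in Ctr, 199 to 201 CPM in Ref and 257 to 290 CPM in Alt. The 8 interneuron markers summed to 261 to 265 CPM in Alt, 293 to 376 CPM in Ctr and 277 to 284 CPM in Ref. By gene, Alt exceeded Ctr for 2 of them and fell short of it for 6, with 3 lower at an unadjusted p of 0.05, against 19.8% of all genes. The median log2 fold change was -0.24. Without the first Alt library it was -0.21, with 1 higher and 7 lower. The 7 excitatory markers summed to between 5076 and 5832 CPM in Ctr, 5980 and 6010 CPM in Ref and 6111 and 6443 CPM in Alt. Camk2a and Slc17a7 made up most of this sum, and by gene Alt exceeded Ctr for 3 and fell short of it for 4, at a median log2 fold change of -0.16. This median was 0.09 without the first Alt library, -0.46 without the second and 0.02 with the length correction. Nr4a2, which marks the claustrum and the deepest cortical layer beside it, was lower in Alt than in Ctr at an unadjusted p of 0.05 but not without the first Alt library (-0.41, edgeR, unadjusted p = 0.195, adjusted p = 0.717), with the claustrum and insula markers at 60.8 to 65.1 CPM in Alt and 68.4 to 81.1 CPM in Ctr. The 2 septal markers Zic1 and Zic4 summed to 42.8 and 47.4 CPM in Alt and to at most 34.4 CPM in Ctr and 35.4 CPM in Ref. The thalamic markers were at 14.6 to 17.0 CPM in Alt and 15.5 to 17.7 CPM in Ctr, and the olfactory bulb markers at 4.96 to 6.96 CPM and 5.51 to 17.8 CPM.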

How the data were processed

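The 7 libraries (3 Ctr, 2 Ref, 2 Alt) of polyA-enriched RNA from female PFC were grouped by their titles. The authors deposited 1 table with counts of reads per gene, without normalization, with TPM values that sum to the same total in each library, with FPKM values, which divide the counts by gene length and by the library's total, and with the gene length in bases. STAR and featureCounts are listed in the submitters' processing notes without versions. The build those notes list is a human one, and the build of the mouse table is not stated. All value columns were matched to samples. TPM values were checked for their sums and not used further.

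Tests were run on the counts with edgeR 4.0.16 under R 4.3.3. TMM factors and filterByExpr by group (17254 genes kept) preceded a quasi-likelihood test on group means in which all 7 libraries shared 1 estimate of the spread, and the Benjamini-Hochberg adjustment ran over every gene tested. A prior count of 2 entered the log2 CPM. Nothing states that libraries came from separate mice, so the p-values measure the spread between these libraries, which may be in part technical. Alternatives were DESeq2 1.42.0, its size factors, no filter, removal of a loess curve (span 0.3) on gene length, the replicate number as a block, the 2 groups alone, and each library left out in turn. With a single library left in a group, that library is assumed to vary like the others. The scripts were tested on simulated counts. All 9 members are named in each comparison between 2 groups. From the other lists, counts, medians and the genes with the lowest p in Alt versus Ctr and Alt versus Ref are given. The members and lists were chosen with earlier results of these data known. Totals were 16655697 to 20750857 counts per library, with at least 356 counts of every member in each. Male mice and the human data were not analysed here.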

Additional observations from a re-analysis of the deposited data

How the results depend on the processing

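Each group had 2 or 3 libraries, and each member at least 356 counts in every library. Of the counts and scores recomputed under other settings, 104 stayed within 1.5 times the count or 1 pooled SD of the score and 32 did not. Of the log2 fold changes of single members, 277 kept their direction and side of the threshold, 36 changed direction, 20 newly passed and 18 no longer passed an unadjusted p of 0.05. The causes of the changes that follow were not tested. The number of members past an unadjusted p of 0.05 in Alt versus Ctr was 3, and became 5 without the low-count filter (15.8% of all genes), 1 with the length correction (16.3%), 1 with the replicate block (12.6%) and 2 to 5 on leaving out single libraries (8.14% to 33.2%). Past an FDR of 0.05 it was 0, and 1 without the filter (1484 genes called in all), 1 with DESeq2 (1123) and 0 to 2 on leaving out libraries, with 2 only without the second Alt library (3451). For Alt versus Ref it was 3 at an unadjusted p of 0.05, and 1 with the length correction (13% of all genes) and 1 to 5 on leaving out libraries (4.19% to 28.9%), and at an FDR of 0.05 it was 0, and 1 without the filter (850 genes called in all), 1 with DESeq2 (449) and 0 to 2 on leaving out libraries, with 2 only without the second Alt library (2708). For Ref versus Ctr it was 0, and 1 without the filter (3% of all genes), 3 with the 2 groups alone (5.73%) and 0 to 3 on leaving out libraries (1.25% to 5.52%). For the scored order it was 3, and 5 without the filter (16.2% of all genes), 1 with the length correction (13.9%), 1 with the replicate block (12.8%) and 1 to 4 on leaving out libraries (7.14% to 20.03%), and at an FDR of 0.05 it was 0, and 1 with DESeq2 (610 genes called in all) and 1 without the filter (1136).

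The upper minus deep difference between Alt and Ctr was 0.53, and 0.31 with the length correction, 0.24 with the median of members and 0.32 to 0.75 on leaving out libraries. Between Alt and Ref it was 0.21, and 0.00783 with the length correction, 0.38 without Cux1, 0.38 without Bcl11b and Foxp2, -0.22 with the median and -0.00909 to 0.43 on leaving out libraries. Between Ref and Ctr it was 0.32 and stayed within 1 pooled SD under each alternative.

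Direction changed for these log2 fold changes. With the length correction, Alt versus Ctr was -0.10 for Cux1, -0.24 for Etv1 and -0.0189 for Tle4, Alt versus Ref was -0.35 for Cux1 and -0.11 for Etv1, and Ref versus Ctr was -0.0422 for Rorb. With the replicate block, Alt versus Ctr was 0.0254 for Tbr1 and -0.0695 for Tle4, and Ref versus Ctr was -0.077 for Rorb, 0.044 for Fezf2 and 0.0436 for Tbr1. Tbr1 in Alt versus Ref was 0.0222 with DESeq2 size factors and 0.0222 with DESeq2. Rorb in Ref versus Ctr was -0.00394 with the 2 groups alone. On leaving out libraries, Alt versus Ctr ranged from -0.00717 to 0.27 for Etv1, -0.0554 to 0.55 for Bcl11b, -0.19 to 0.0223 for Tbr1, -0.45 to 1.17 for Foxp2 and -0.22 to 0.23 for Tle4. Alt versus Ref ranged from -0.0986 to 0.21 for Cux1, -0.0899 to 0.55 for Etv1, -0.0769 to 0.53 for Bcl11b and -0.0824 to 0.0682 for Tbr1. Ref versus Ctr ranged from -0.18 to 0.18 for Rorb, -0.42 to 0.22 for Etv1, -0.19 to 0.0695 for Fezf2, -0.16 to 0.19 for Bcl11b and -0.17 to 0.0377 for Tbr1.

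The replicate numbers did not pair the libraries. Deviations from the group means of libraries with the same number correlated across genes at 0.0552 and 0.0702 between Ctr and Ref, at -0.0984 and -0.0948 between Ctr and Alt and at -0.0886 between Ref and Alt.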
